A study of Mus musculus with 9 samples.

Results

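The genes described here are the 38 mouse Hox genes of the Hoxa, Hoxb, Hoxc and Hoxd clusters that have a row in the count tables, chosen by symbol alone from 38926 genes. Lumbar dorsal root ganglia (levels L3 to L5, ipsilateral to the injected hind paw) were taken from wild type male C57BL/6 mice aged 8 to 10 weeks. One group received vehicle, and the others received cisplatin or oxaliplatin by intraplantar injection to a cumulative 40 µg. Each group had 3 libraries and each library was a pool of the ganglia of 4 animals, so spread between libraries is spread between pools and the variation of single animals was not measured. The comparison asks where along the body axis the Hox transcripts of these ganglia end, and whether that profile differed between the vehicle and drug libraries.

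Hox genes encode homeodomain transcription factors that give cells of the embryo their position along the head to tail axis. Genes at the 3′ end of each cluster (low paralogue numbers) are switched on early and far forward, and genes at the 5′ end (high numbers) are switched on later and farther back, so a tissue's set of active Hox genes records its axial level. Adult neurons and connective tissue cells keep much of this code. In the vertebral column, group 10 genes act at lumbar levels and groups 11 to 13 farther back.

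Depth allowed low transcripts to be seen. The libraries held 22819185 to 38808509 gene reads, single-end and 75 nucleotides long, and 4039 to 10401 of them fell on Hox genes. Levels are given as CPM, read counts scaled to equal library totals after TMM correction, and a floor of 3 counts corresponds to 0.0711 to 0.188 CPM. Vehicle library 2 stood apart, with multiple alignments for 51.0% of recorded reads and a TMM factor of 0.6998. The share of unique reads outside genes was 26.2 to 47.7% in the vehicle libraries and 16.6 to 19.1% in the drug libraries, so this property and treatment cannot be told apart. Sensory neuron markers were abundant in every library, with a summed level of 13197 to 14661 CPM over 9 genes and none at 0. Peripherin (Prph), an intermediate filament of peripheral neurons, lay between 1467 and 1777 CPM.

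Members of 1 paralogue group are close in sequence, which matters where a scarce gene sits beside an abundant relative. The homeobox, the 180 bases that encode the DNA-binding homeodomain, is shown for the 3 members of group 10, of which Hoxa10 is abundant and Hoxd10 scarce here, and for Hoxa11. It was found for all 38 members in GENCODE M21 transcripts. The capitals mark bases that differ from Hoxa10 at the same position.
Hoxa10 homeobox: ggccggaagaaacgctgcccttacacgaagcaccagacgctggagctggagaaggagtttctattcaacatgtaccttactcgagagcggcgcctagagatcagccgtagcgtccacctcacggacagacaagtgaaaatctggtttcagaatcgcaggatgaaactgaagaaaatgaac
Hoxc10 homeobox: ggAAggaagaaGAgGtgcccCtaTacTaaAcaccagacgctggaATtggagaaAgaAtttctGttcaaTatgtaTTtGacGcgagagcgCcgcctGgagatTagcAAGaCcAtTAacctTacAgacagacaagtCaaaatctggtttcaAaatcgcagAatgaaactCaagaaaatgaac
Hoxd10 homeobox: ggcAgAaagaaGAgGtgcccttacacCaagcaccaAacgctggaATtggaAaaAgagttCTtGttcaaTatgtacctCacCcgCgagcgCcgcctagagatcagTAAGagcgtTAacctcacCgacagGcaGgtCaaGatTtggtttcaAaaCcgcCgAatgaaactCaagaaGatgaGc
Hoxa11 homeobox: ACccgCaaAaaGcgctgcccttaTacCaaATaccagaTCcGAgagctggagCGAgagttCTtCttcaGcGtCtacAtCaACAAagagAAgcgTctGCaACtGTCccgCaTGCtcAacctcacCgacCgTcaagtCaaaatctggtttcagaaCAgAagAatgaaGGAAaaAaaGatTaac
Hoxa10 shared 80.6% of these bases with Hoxc10, 78.9% with Hoxd10 and 67.8% with Hoxa11. Over all pairs of members, the longest identical run within the homeobox was 52 bases, shorter than the 75 nucleotide read. Windows of 75 bases were also sought in the annotated transcripts of genes that do not overlap the member. Only Hoxc9 with 7 and Hoxd11 with 8 had such shared windows. Genes lying over a member were left out of this search, and sequence outside annotated transcripts was not searched.

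Most Hox genes were detected. Of the 38 members, 28 had more than 3 counts in all 9 libraries, and every one of these belongs to groups 1 to 10. Hoxa11, Hoxc11 and Hoxd11 passed the floor in some libraries only. The remaining 7 members passed it in none (Hoxa13, Hoxb1, Hoxb13, Hoxc12, Hoxc13, Hoxd12 and Hoxd13), and Hoxb1, which works in the hindbrain, and Hoxd12 had no read at all. A count of 0 allows at most the floor of 3 counts in a library. With a floor of more than 10 counts, 25 members remained detected in all libraries.

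Of the 10 members of highest level per exon kilobase, 9 belonged to groups 6 to 10 and the other was Hoxd1. Groups 8 and 10 also held low members, with Hoxb8 at 1.095 and Hoxd10 at 0.353 CPM per kb, and no member of groups 11 to 13 was above 0.133 CPM per kb. Compared per kilobase of exon, the mean over the 9 libraries was highest for Hoxd8 at 9.83 CPM per kb, followed by Hoxa7 at 9.50, Hoxd1 at 8.78, Hoxa9 at 8.23 and Hoxa10 at 7.48 CPM per kb. Neighbours in this order overlapped between libraries, with Hoxd8 at 9.45 to 10.4 and Hoxa7 at 8.65 to 10.2 CPM per kb. Hoxa10 ranged from 6.69 to 8.33 CPM per kb and did not overlap Hoxb7, the next gene in the order, at 3.88 to 5.65. The highest member was Hoxa7 in the Hoxa cluster, Hoxb7 in the Hoxb cluster, Hoxc6 in the Hoxc cluster and Hoxd8 in the Hoxd cluster. Hoxa7 was at 25.1, 24.9 and 26.6 CPM in vehicle, 26.6, 28.7 and 29.2 in cisplatin and 28.4, 27.4 and 29.1 in oxaliplatin. Hoxd8 was at 26.5, 26.3 and 26.7 CPM in vehicle, 28.7, 25.9 and 27.9 in cisplatin and 26.1, 27.4 and 27.3 in oxaliplatin. The groups overlapped for Hoxd8, and for Hoxa7 the oxaliplatin libraries lay above the vehicle libraries without passing the test (adjusted p = 0.0684, edgeR).

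Within the Hoxa cluster, which lies on the minus strand of chromosome 6 (GRCm38), levels climbed from Hoxa2 at 0.356 CPM per kb through Hoxa4 at 0.838 and Hoxa5 at 2.66 to the plateau of Hoxa7, Hoxa9 and Hoxa10. The Hoxd cluster on chromosome 2 did not follow this slope, because Hoxd1, its most 3′ gene, was among the highest members and Hoxd3 stood at 1.45 CPM per kb. Hoxd1 is known in mice as a gene of nociceptive sensory neurons. Its level was 17.4, 16.8 and 17.6 CPM in vehicle libraries 1 to 3, 15.1, 16.0 and 17.2 in cisplatin and 16.6, 14.8 and 15.7 in oxaliplatin, and neither drug comparison passed the test (adjusted p = 0.259 and 0.131, edgeR).

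**Figure D1:**
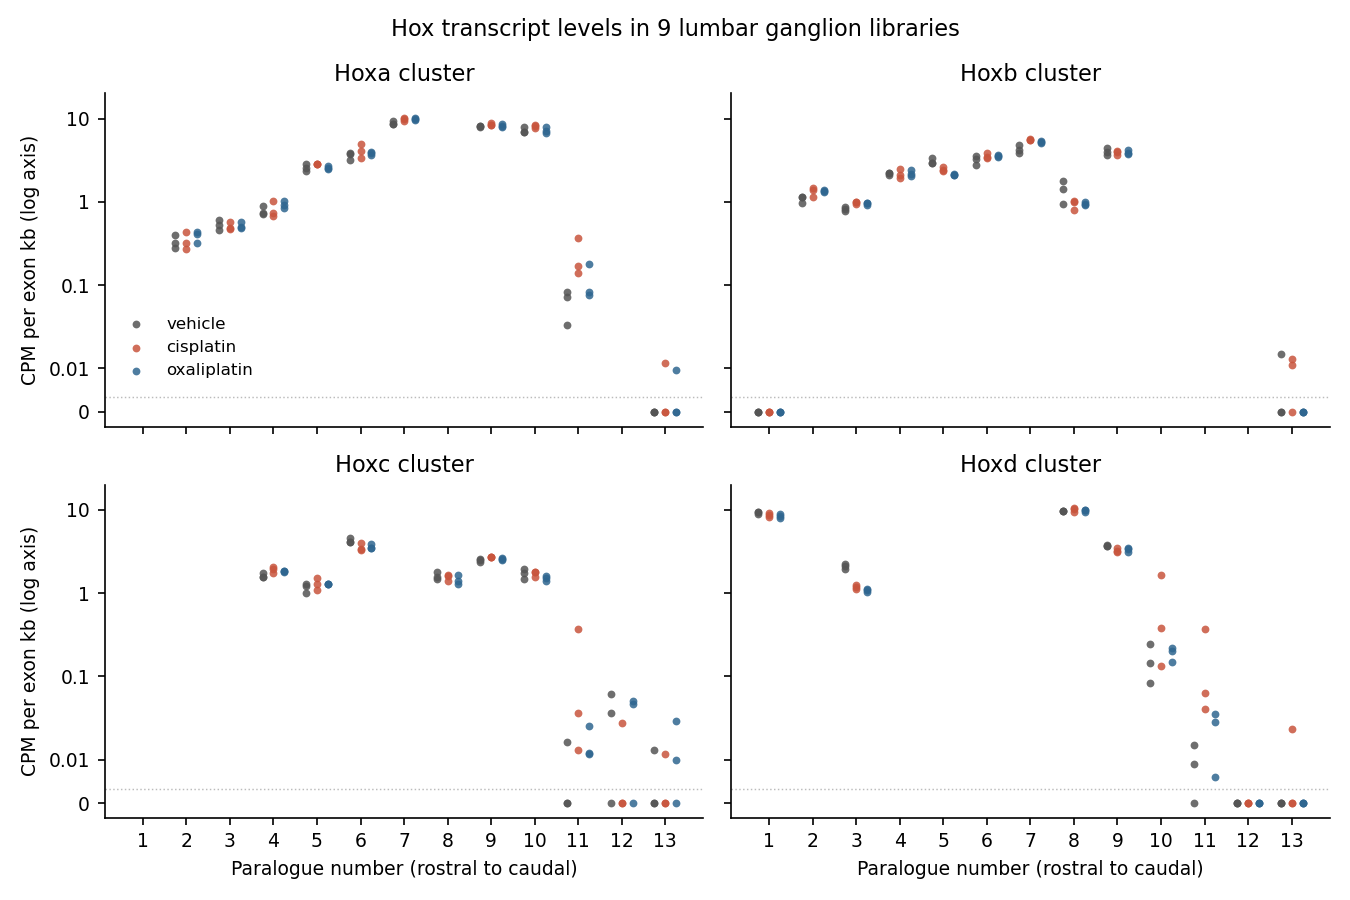
Level of Hox genes (CPM per exon kilobase, log axis, with 0 drawn below the dotted line) against paralogue number, in 1 panel per cluster. Each point is 1 library, coloured by group. Points of the 3 groups lie together at nearly all genes, levels drop between Hoxa10 and Hoxa11 and between Hoxd9 and Hoxd10, and a single cisplatin library stands above the others at Hoxd10, Hoxd11 and Hoxc11.

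The caudal end of the code was sharp in the Hoxa and Hoxd clusters. Hoxa10 and Hoxa11 start 4.96 kb apart on chromosome 6 (chr6:52231197-52240854 and chr6:52242106-52245810). Summed over the vehicle libraries, 1705 reads fell on Hoxa10 and 10 on Hoxa11, a ratio of 119 in reads per exon kilobase (exact 95% interval 64.7 to 249, counting error only). Hoxd9 and Hoxd10 start 5.80 kb apart on chromosome 2 (chr2:74697727-74700208 and chr2:74691924-74695105), with 574 and 19 reads and a ratio of 25.7 (16.3 to 43.0). The Hoxc cluster on chromosome 15 kept its group 10 gene, since Hoxc9 and Hoxc10 differed by a ratio of only 1.47 (1.25 to 1.73). Behind it, 236 reads fell on Hoxc10 and 1 on Hoxc11, a ratio of 250 (44.4 to 9910). The Hoxb cluster has no member between Hoxb9 and Hoxb13, and 777 and 1 reads fell on these genes in vehicle. About 35% of Hoxa11's exon bases overlap the antisense gene Hoxa11os, and the strand setting of the counting is not given, so some of its few reads may belong to that gene.

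The promoters on both sides of these steps are shown because the genes are neighbours with very different levels. Each window runs from 250 bases before to 50 after the start in RefSeq (GRCm38.p6), and capitals mark CpG dinucleotides, the usual target of DNA methylation.
Hoxa10 promoter (chr6:52240805-52241104, minus strand): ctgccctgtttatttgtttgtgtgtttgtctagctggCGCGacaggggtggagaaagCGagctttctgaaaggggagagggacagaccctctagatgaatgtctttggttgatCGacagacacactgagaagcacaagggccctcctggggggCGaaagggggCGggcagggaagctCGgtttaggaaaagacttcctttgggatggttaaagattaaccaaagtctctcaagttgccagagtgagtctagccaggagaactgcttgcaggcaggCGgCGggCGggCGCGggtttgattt
Hoxa11 promoter (chr6:52245761-52246060, minus strand): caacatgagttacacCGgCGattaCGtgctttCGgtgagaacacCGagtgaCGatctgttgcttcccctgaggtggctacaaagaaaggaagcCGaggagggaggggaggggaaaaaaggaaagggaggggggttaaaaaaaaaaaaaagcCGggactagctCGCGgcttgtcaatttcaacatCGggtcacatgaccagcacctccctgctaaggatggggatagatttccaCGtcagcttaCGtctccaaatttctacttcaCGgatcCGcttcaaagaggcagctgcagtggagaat
Hoxd9 promoter (chr2:74697513-74697812, plus strand): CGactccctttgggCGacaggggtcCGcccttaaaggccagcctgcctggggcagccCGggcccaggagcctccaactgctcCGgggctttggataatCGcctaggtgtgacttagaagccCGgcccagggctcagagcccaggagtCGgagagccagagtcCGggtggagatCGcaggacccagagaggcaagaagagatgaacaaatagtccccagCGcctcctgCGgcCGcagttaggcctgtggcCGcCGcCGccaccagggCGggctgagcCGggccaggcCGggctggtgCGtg
Hoxd10 promoter (chr2:74691641-74691940, plus strand): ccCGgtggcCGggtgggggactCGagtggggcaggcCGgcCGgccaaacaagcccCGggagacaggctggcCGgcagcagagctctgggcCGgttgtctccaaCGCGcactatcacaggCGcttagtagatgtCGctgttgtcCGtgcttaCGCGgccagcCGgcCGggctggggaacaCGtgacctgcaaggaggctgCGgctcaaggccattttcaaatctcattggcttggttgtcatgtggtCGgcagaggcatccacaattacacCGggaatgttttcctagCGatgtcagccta
Hoxa10 held 12 CpG and Hoxa11 15, while Hoxd9 held 20 and Hoxd10 22. The scarce gene of each pair thus had slightly more CpG than its abundant neighbour. Among the 21 members with a window in the table the median was 14 CpG, against 7 over all 32851 windows. The letters TGATTNAT, the core of the site bound by PBX and HOX proteins together, were sought on either strand. They occurred in 1 of the 21 members' windows, that of Hoxa2 (4.76%), and in 1058 of all 32851 windows (3.22%). A single window does not tell these shares apart.

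The large blocks of groups 4 to 8 and 9 to 13 took similar parts of the total in every library. Several smaller blocks and single groups varied more for their size. Groups 9 to 13 supplied 30.4% ± 0.277 of the summed level per kilobase in the vehicle libraries (mean ± SD, n = 3). The value was 31.5% ± 0.840 with cisplatin and 30.3% ± 0.175 with oxaliplatin. The lowest library was at 30.1% and the highest, cisplatin library 1, at 32.3%. Groups 9 and 10 supplied nearly all of this, at 29.98 to 31.4% over the libraries. Groups 11 to 13 supplied only 0.0888 to 1.23%, so the share of groups 9 to 13 says little about them. Groups 4 to 8 supplied 53.6% ± 0.259 in vehicle, 54.2% ± 0.678 in cisplatin and 55.1% ± 0.317 in oxaliplatin. For these groups each oxaliplatin library, at 54.8 to 55.4%, lay above each vehicle library, at 53.3 to 53.9%. Groups 1 to 3 supplied 16.0% ± 0.451, 14.2% ± 0.762 and 14.6% ± 0.470 in the same order, and each vehicle library, at 15.4 to 16.2%, lay above each drug library, at 13.4 to 15.1%. Group 3 alone, which includes Hoxd3, supplied 3.80 to 3.91% in the vehicle libraries and 2.77 to 2.92% in the drug libraries. Group 7 supplied 14.35 to 14.76% in vehicle and 15.47 to 17.03% in the drug libraries. Group 11 supplied 0.0475 to 0.106% in vehicle and 0.137 to 1.14% in the drug libraries.

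**Figure D2:**
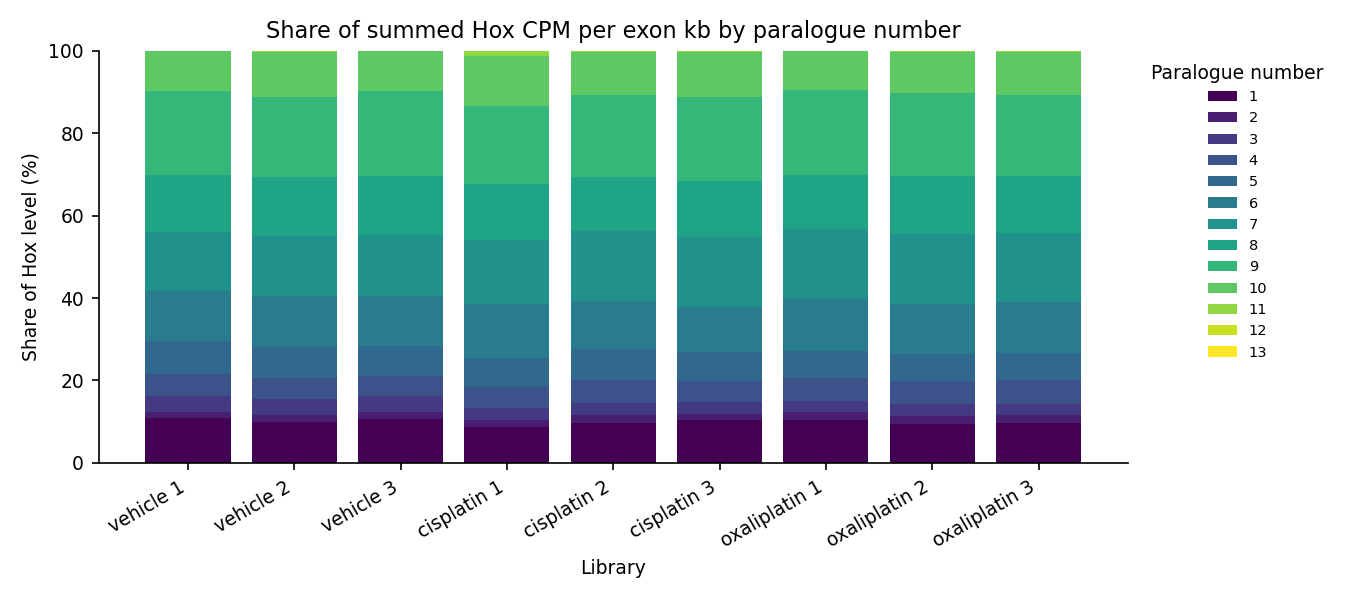
Share of the summed Hox level (CPM per exon kilobase, %) taken by each paralogue number, stacked for each of the 9 libraries. Groups 9 to 13 together lie between 30.1 and 32.3%, the band of group 3 is wider in the vehicle than in the drug libraries, and a thin band of group 11 seen in cisplatin library 1.

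Cisplatin library 1 held more caudal Hox transcript than any other library. Hoxd10 had 4, 7 and 8 reads in vehicle libraries 1 to 3, 103, 10 and 26 in cisplatin and 11, 17 and 14 in oxaliplatin. Hoxd11 had 1, 1 and 0 reads in vehicle, 54, 7 and 10 in cisplatin and 6, 5 and 1 in oxaliplatin. Hoxc11 had 0, 0 and 1 in vehicle, 26, 3 and 1 in cisplatin and 1, 1 and 2 in oxaliplatin. Library 1 was the highest of the 9 for each gene. Hoxa11 followed with 2, 3 and 5 reads in vehicle, 29, 16 and 12 in cisplatin and 7, 8 and 16 in oxaliplatin. Hotair, a long noncoding RNA between Hoxc11 and Hoxc12, had 6 reads in cisplatin library 1 and 0 to 3 in the others. Groups 11 to 13 and Hoxd10 together had 218 reads in that library and 8 to 49 in each of the others. The step between Hoxd9 and Hoxd10 was accordingly 2.15-fold there (1.71 to 2.73) and 8.24 to 44.0-fold in the other 8 libraries.

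Single transcripts stood apart in several libraries. On a scale of CPM + 0.1, 5 of the genes that passed the filter on low counts were more than 2-fold above every other library in cisplatin library 1, Hoxd10 being the only Hox gene among them, beside 17 genes in oxaliplatin library 1, 12 in vehicle library 2 and 0 to 2 in each of the others, with no Hox gene. The gene farthest above the other libraries in cisplatin library 1 was Uts2b, with 117 reads against 10 to 24 elsewhere. Slc6a5, the glycine transporter of inhibitory neurons of the spinal cord and brainstem, had 33 reads in cisplatin library 1 and 3 to 14 elsewhere. Of the other spinal cord markers, the oligodendrocyte genes Olig1 and Mog had 16 and 14 reads against at most 9 in any other library. Olig2 and Opalin had 4 reads each there and at most 2 elsewhere. Chat was highest in cisplatin library 3 with 6 reads and Pax2 in vehicle library 3 with 8. Mnx1, which defines motor neurons, had 0 to 2 reads in every library, too few to tell libraries apart. The summed level of the 10 spinal cord markers was 21.7 to 24.4 CPM in vehicle, 22.4, 18.9 and 19.5 CPM in cisplatin libraries 1 to 3 and 18.4 to 18.9 CPM in oxaliplatin. Aqp4 and Slc5a7 supply most of that sum. Chosen after its values were seen, the oligodendrocyte gene Mobp had 620 reads in cisplatin library 1 and 17 to 292 elsewhere. Myh1, a skeletal muscle marker, had 263 reads in cisplatin library 1 and 11 to 62 elsewhere. The summed level of the 7 muscle markers was 32.3, 14.3 and 8.08 CPM in cisplatin libraries 1 to 3. It was higher in oxaliplatin libraries 1 and 2, at 50.1 and 39.7 CPM. The part of these transcripts in the Hox result was not tested.

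**Figure D3:**
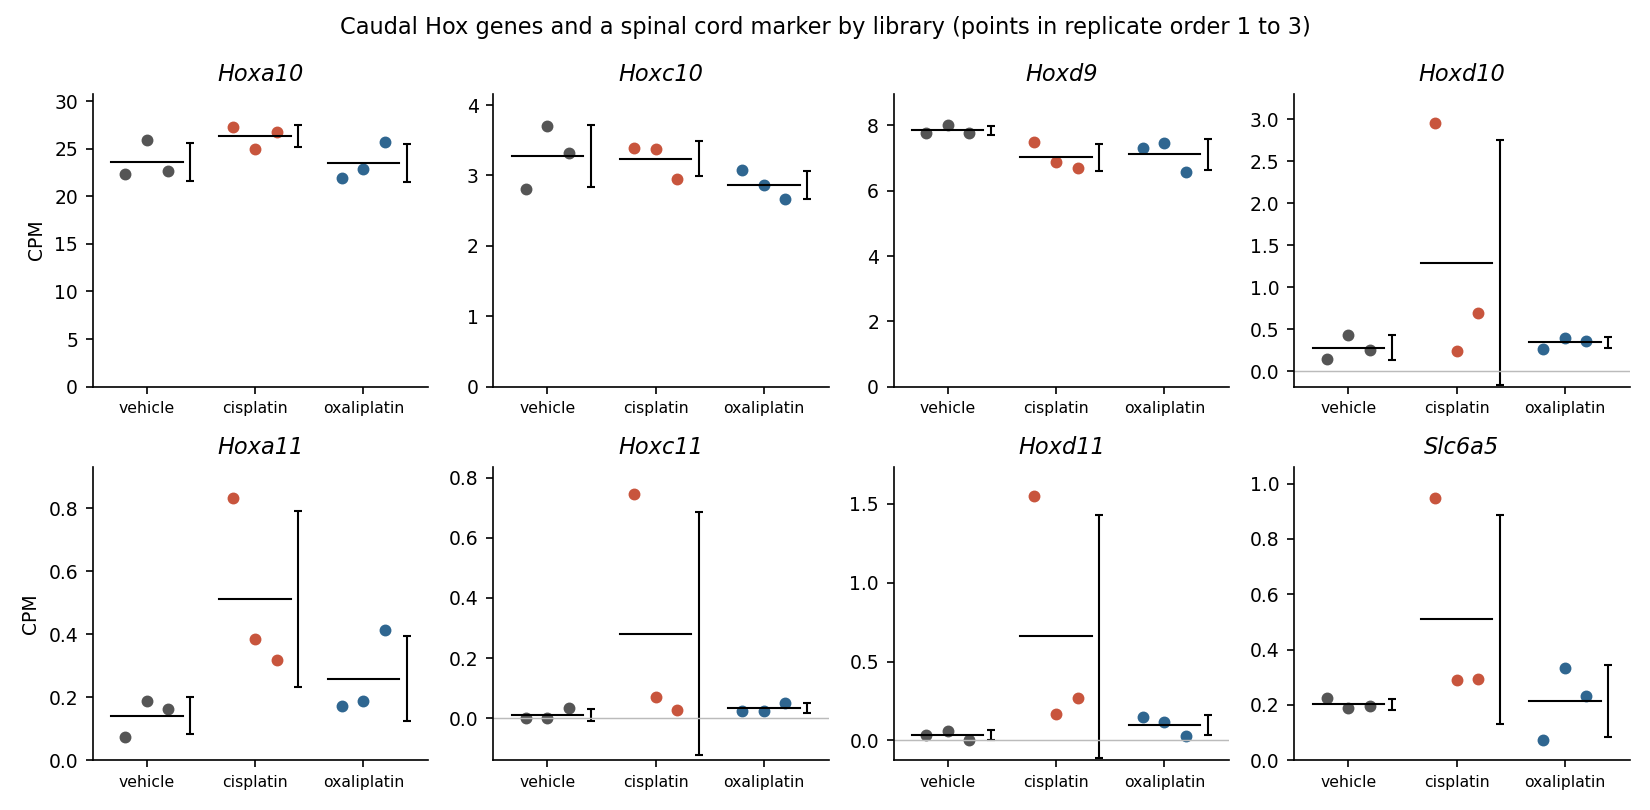
Level in each library (CPM, linear axis) of caudal Hox genes, Hoxd9 and the spinal cord marker Slc6a5, with points in replicate order 1 to 3, a line at the group mean and a bar of 1 SD either side (n = 3). Cisplatin library 1 is the highest point for Hoxd10, Hoxd11, Hoxc11, Hoxa11 and Slc6a5, whereas Hoxc10 and Hoxd9 show no such point.

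Cisplatin was compared with vehicle in a fit of all genes (edgeR quasi-likelihood test, Benjamini-Hochberg adjustment, threshold 0.05). Of the 38 members, 29 passed the filter on low counts and 6 of these changed, 2 higher and 4 lower. That is 20.7% of the members tested, beside 38.7% of all 17348 genes. The groups did not overlap in 11 of 29 members, beside 48.0% of all genes. The median size of change was 0.15 on the log2 scale for the members and 0.22 for all genes. In pooled whole ganglia, fewer cells of a type and less RNA per cell cannot be told apart.

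Oxaliplatin against vehicle gave 5 changed members, 2 higher and 3 lower, or 17.2% beside 41.6% of all genes. The groups did not overlap in 11 of 29 members, beside 50.5% of all genes. Both drug comparisons share the vehicle libraries. Compared directly, cisplatin and oxaliplatin differed in 0 of 29 members by edgeR, beside 2 of all genes (0.0115%), and 2 members, Hoxb5 and Hoxd10, had an unadjusted p under 0.05. The DESeq2 and limma-voom fits also called 0 members.

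**Figure D4:**
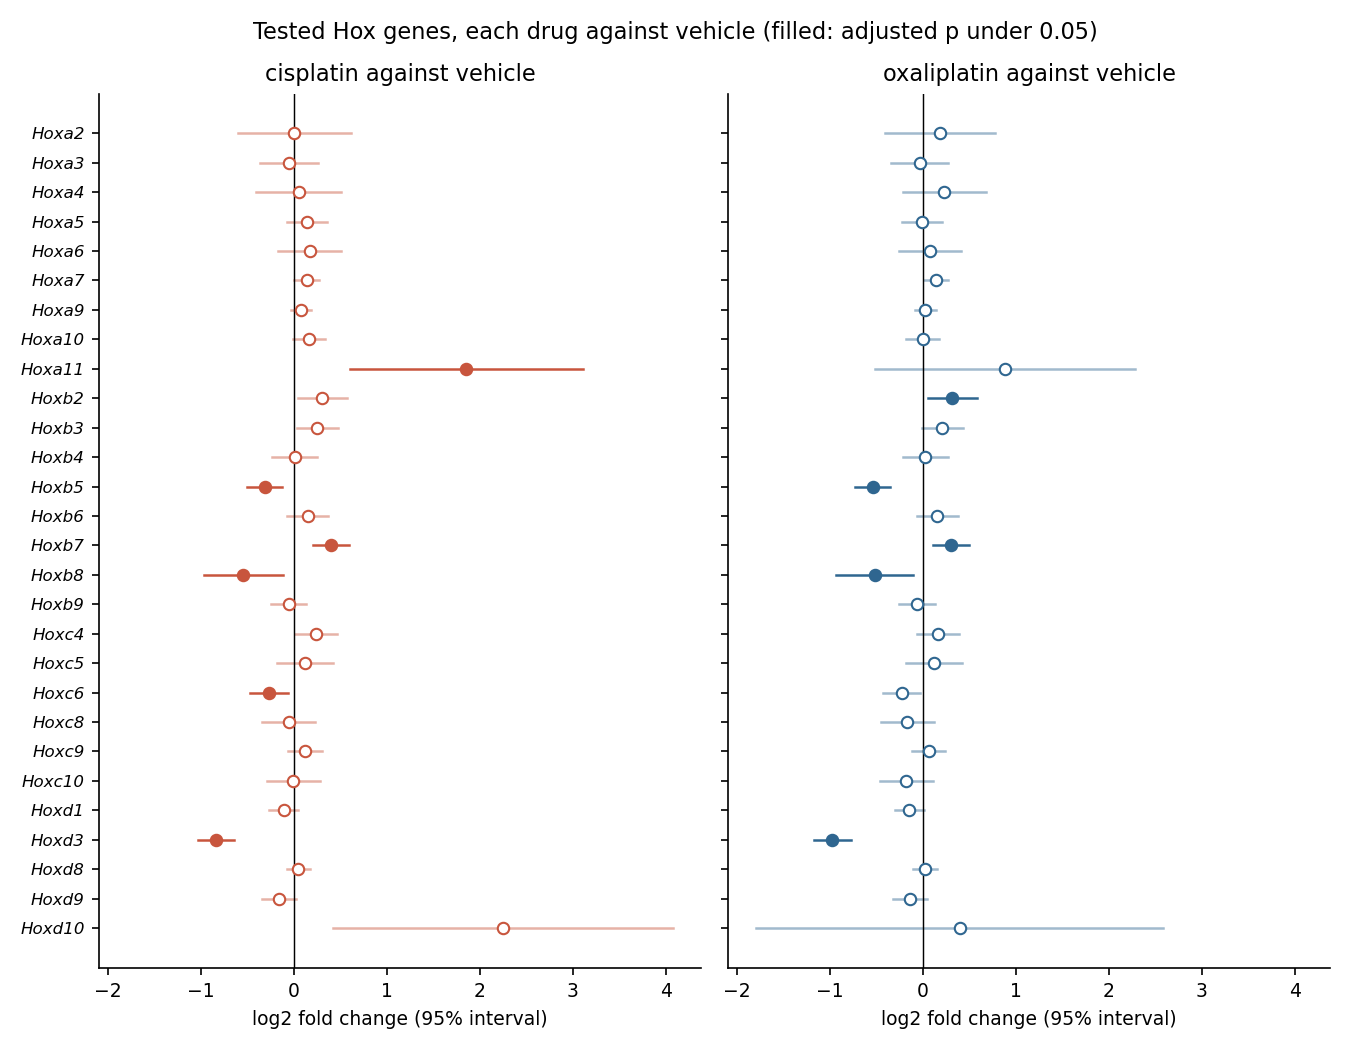
Log2 fold change with its 95% interval for 28 of the 29 tested Hox genes, cisplatin against vehicle on the left and oxaliplatin against vehicle on the right, with filled points where the adjusted p was under 0.05. Most intervals cover 0, Hoxd3 lies farthest below 0 in both panels, and the widest intervals belong to the scarce genes Hoxa11 and Hoxd10.

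Hoxd3, a gene of the front part of the Hoxd cluster (chr2:74711927-74748442), had the smallest adjusted p of the members for each drug. It stood at 8.17, 9.40 and 8.94 CPM in vehicle libraries 1 to 3, 5.22, 4.72 and 4.89 in cisplatin and 4.52, 4.64 and 4.30 in oxaliplatin. All 6 drug libraries lay below all 3 vehicle libraries. The log2 fold change was -0.83 for cisplatin (SE 0.09, interval -1.03 to -0.64, adjusted p = 5.26e-05, edgeR) and -0.97 for oxaliplatin (SE 0.09, interval -1.17 to -0.77, adjusted p = 1.65e-05). It passed in each of the 19 alternatives run for each drug, at -0.87 to -0.54 for cisplatin and -0.9999 to -0.67 for oxaliplatin. Gm28230 and another annotated gene that is not analysed here cover 62.3% of its exon bases on the same strand, so its reads cannot be fully separated from theirs and the change may include them. Its cluster neighbours Hoxd1, Hoxd8 and Hoxd9 did not pass for either drug, with log2 fold changes between -0.16 and 0.05.

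In the Hoxb cluster, neighbouring genes went in opposite directions. Hoxb5 stood at 8.13, 9.46 and 8.19 CPM in vehicle, 6.59, 7.23 and 6.75 in cisplatin and 5.85, 5.78 and 6.01 in oxaliplatin, with no overlap between any pair of groups. It fell by 0.31 on the log2 scale with cisplatin (SE 0.09, adjusted p = 0.0134, edgeR) and by 0.54 with oxaliplatin (SE 0.09, adjusted p = 0.000533). Without vehicle library 2 the cisplatin value was -0.23 and did not pass (adjusted p = 0.0522). Hoxb7 stood at 6.00, 7.45 and 6.40 CPM in vehicle, 8.72, 8.65 and 8.53 in cisplatin and 8.08, 8.41 and 7.85 in oxaliplatin, so every drug library was above every vehicle library. It rose by 0.40 with cisplatin (SE 0.09, adjusted p = 0.00412, edgeR) and by 0.31 with oxaliplatin (SE 0.09, adjusted p = 0.0150). The oxaliplatin call was lost without vehicle library 1 (adjusted p = 0.0516), vehicle library 3 (0.0508) or oxaliplatin library 2 (0.0601). Hoxb8, which lies next to Hoxb7, stood at 2.51, 4.70 and 3.80 CPM in vehicle, 2.72, 2.10 and 2.605 in cisplatin and 2.605, 2.44 and 2.49 in oxaliplatin. Vehicle library 1 lay among the drug libraries for this gene. Its log2 fold changes were -0.54 (adjusted p = 0.0438, edgeR) and -0.52 (adjusted p = 0.0480), and without vehicle library 2 neither passed (-0.35, adjusted p = 0.149, and -0.32, adjusted p = 0.175). Each call was lost in 8 of the 9 fits that left out 1 library, vehicle library 1 being the exception.

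Calls near the threshold made up the rest. Hoxb2 stood at 3.37, 3.95 and 3.998 CPM in vehicle, 4.85, 5.11 and 4.01 in cisplatin and 4.67, 4.81 and 4.61 in oxaliplatin, and passed for oxaliplatin (0.32, adjusted p = 0.0492, edgeR) but not for cisplatin (0.31, adjusted p = 0.0606). The direct comparison of the drugs gave -0.01 for this gene (adjusted p = 0.992), and the oxaliplatin call was lost in 7 of 9 fits without 1 library. Hoxc6 stood at 9.94, 11.02 and 9.75 CPM in vehicle, 9.52, 8.05 and 7.92 in cisplatin and 9.26, 8.39 and 8.47 in oxaliplatin. It passed for cisplatin (-0.26, adjusted p = 0.0432, edgeR) but not for oxaliplatin (-0.22, adjusted p = 0.0708), and the cisplatin call was lost in 8 of 9 fits without 1 library. With scaling by library totals alone, which moved the median of all genes by 0.29 for cisplatin and 0.30 for oxaliplatin, Hoxb5 (-0.02 and -0.23) and Hoxb8 (-0.24 and -0.20) no longer passed and Hoxc6 turned to 0.03 for cisplatin.

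**Figure D5:**
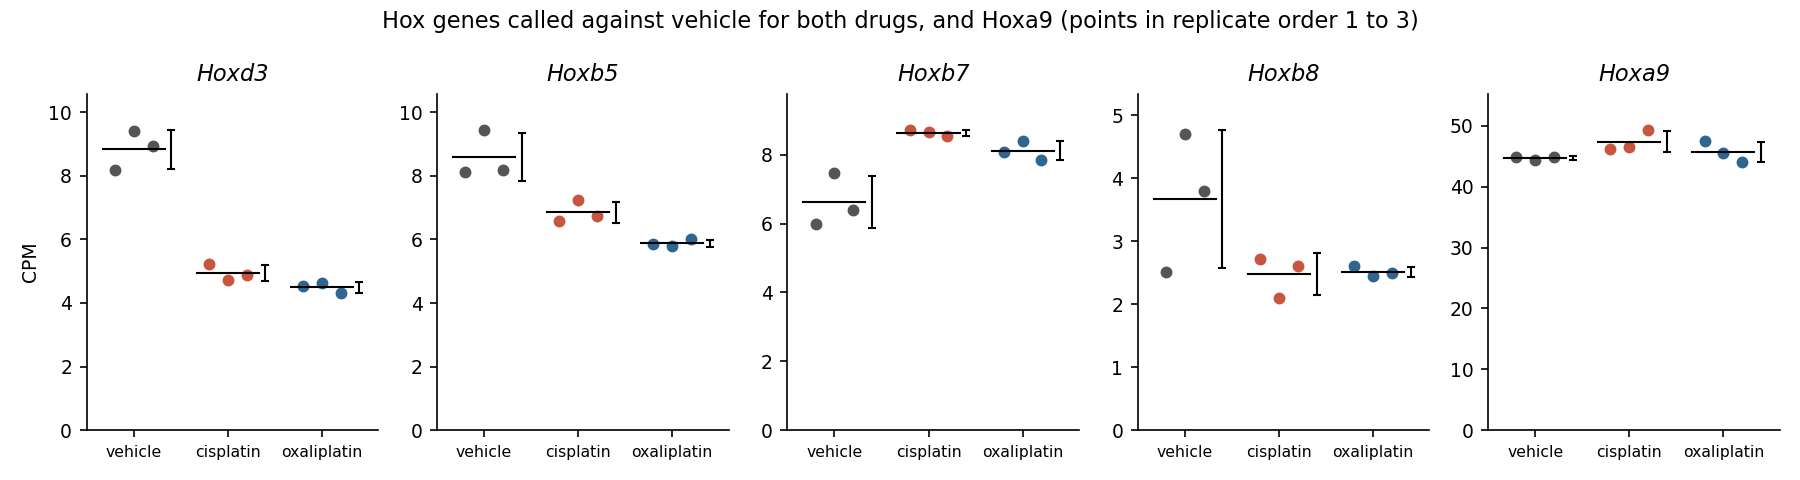
Level in each library (CPM, linear axis from 0) of the Hox genes called against vehicle for both drugs and of Hoxa9, the member with the most reads, with points in replicate order 1 to 3, a line at the group mean and a bar of 1 SD either side (n = 3). Hoxd3 and Hoxb5 are lower and Hoxb7 higher in all 6 drug libraries, Hoxb8 overlaps through vehicle library 1, and Hoxa9 stays between 44.1 and 49.4.

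No gene of group 9 or 10 passed the edgeR test for either drug, although Hoxd10, given in the next paragraph, was at the threshold for cisplatin. With scaling by library totals alone Hoxa9 (0.37, adjusted p = 0.0342), Hoxa10 (0.46, adjusted p = 0.00915) and Hoxc9 (0.41, adjusted p = 0.0360) passed for cisplatin. Hoxa9 stood at 44.9, 44.3 and 44.9 CPM in vehicle, 46.2, 46.6 and 49.4 in cisplatin and 47.4, 45.5 and 44.1 in oxaliplatin, with log2 fold changes of 0.08 (interval -0.03 to 0.19) and 0.03 (interval -0.08 to 0.14). Hoxa10 stood at 22.3, 25.9 and 22.6 CPM in vehicle, 27.2, 24.98 and 26.7 in cisplatin and 21.9, 22.9 and 25.7 in oxaliplatin. Its change was 0.16 with cisplatin (interval -0.01 to 0.34) and -0.00043 with oxaliplatin (interval -0.17 to 0.17). Without vehicle library 2 the cisplatin value passed (0.24, adjusted p = 0.0289). Hoxc10 stood at 2.81, 3.70 and 3.32 CPM in vehicle, 3.38, 3.37 and 2.95 in cisplatin and 3.07, 2.87 and 2.67 in oxaliplatin, and the groups overlapped for both drugs. Hoxb9 stood at 10.3, 9.46 and 11.4 CPM in vehicle, 9.49, 10.2 and 10.6 in cisplatin and 9.83, 9.62 and 10.7 in oxaliplatin. For Hoxc9 the levels were 5.66, 6.08 and 6.31 CPM, then 6.57, 6.51 and 6.59, then 6.46, 6.14 and 6.30 in the same order of groups, and all 3 cisplatin libraries were above the vehicle libraries. For Hoxd9 they were 7.76, 8.02 and 7.77 CPM, then 7.48, 6.89 and 6.70, then 7.30, 7.46 and 6.58, so every drug library was below every vehicle library by a margin that did not pass (adjusted p = 0.161 and 0.210, edgeR).

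The call of Hoxa11 with cisplatin rested on few reads. Its level was 0.0750, 0.188 and 0.162 CPM in vehicle, 0.832, 0.386 and 0.319 in cisplatin and 0.172, 0.189 and 0.414 in oxaliplatin. The change was 1.86 for cisplatin (SE 0.58, interval 0.60 to 3.11, adjusted p = 0.0235, edgeR) and 0.89 for oxaliplatin (adjusted p = 0.288). Without cisplatin library 1 it was 1.35 and did not pass (adjusted p = 0.0834), and without vehicle library 1 or 3 it did not pass either (adjusted p = 0.0996 and 0.0589). Hoxd10 was at 2.25 for cisplatin (interval 0.42 to 4.08, adjusted p = 0.0510), and at 0.80 without cisplatin library 1 (adjusted p = 0.277). It passed without cisplatin library 2 or 3 (adjusted p = 0.00717 and 0.0325), with library 1 then 1 of the 2 cisplatin libraries. With all 9 libraries it passed with DESeq2 size factors (adjusted p = 0.0497), without a filter (0.00348), without abundant RNAs (0.0454), with library totals alone (6.54e-10) and by the DESeq2 test (0.00633), but not by limma-voom (0.203) or with a replicate block (0.0547). Hoxc11 and Hoxd11 did not pass the filter. Without that filter their values were 4.02 (adjusted p = 0.0144) and 4.41 (adjusted p = 0.000591) for cisplatin, with most of their cisplatin reads in library 1.

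HOX proteins bind DNA together with cofactors of the PBX, MEIS and PREP families. Of 8 genes of these families, all tested, 0 rose and 1 fell with cisplatin, and 1 rose and 1 fell with oxaliplatin, with list medians of -0.03 and -0.0030 beside 0.00314 and 0.00341 for all genes. Of all genes, 15.8% rose and 22.9% fell with cisplatin, and 17.5% rose and 24.1% fell with oxaliplatin. Pbx3 fell from 14.2 to 10.0 CPM with cisplatin (-0.50, adjusted p = 0.00125, edgeR) and to 9.56 with oxaliplatin (-0.58, adjusted p = 0.000478). Meis2 stood at 22.9 CPM in vehicle, 19.4 in cisplatin and 20.3 in oxaliplatin. It passed for neither drug (-0.25, adjusted p = 0.0562, and -0.18, adjusted p = 0.141, edgeR). Meis3 rose by 0.17 with oxaliplatin (adjusted p = 0.0346, edgeR) and did not pass with cisplatin (0.13, adjusted p = 0.0999).

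Polycomb complexes keep Hox genes silent and trithorax proteins keep them active. Of 29 such genes, 0 rose and 11 fell with cisplatin (median -0.10), and 1 rose and 14 fell with oxaliplatin (median -0.18), beside 22.9 and 24.1% of all genes lower. Kmt2b, a trithorax histone methyltransferase, fell from 33.4 to 17.9 CPM with cisplatin (-0.90, adjusted p = 5.16e-05, edgeR) and to 17.1 with oxaliplatin (-0.97, adjusted p = 2.31e-05). Phc3, a Polycomb subunit, fell by 0.86 with cisplatin (adjusted p = 5.26e-05, edgeR). Its mean was 90.2 CPM in vehicle, 49.95 in cisplatin and 50.1 in oxaliplatin. Kdm6b, a demethylase of the Polycomb mark, fell by 0.91 with cisplatin (adjusted p = 5.99e-05, edgeR) and by 0.95 with oxaliplatin (adjusted p = 3.36e-05). Ezh2, the Polycomb methyltransferase, stood at 7.84 CPM in vehicle, 7.88 in cisplatin and 8.27 in oxaliplatin and did not pass.

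Retinoic acid, GDF11 and CDX factors induce Hox genes in the embryo. Of 14 genes of this list 9 were tested, with 2 higher and 0 lower for cisplatin and 2 higher and 1 lower for oxaliplatin, beside the 15.8 and 17.5% of all genes higher and 22.9 and 24.1% lower. Aldh1a2, which makes retinoic acid, rose from 4.09 to 8.12 CPM with cisplatin (0.99, adjusted p = 0.00404, edgeR) and to 8.91 with oxaliplatin (1.13, adjusted p = 0.00153). Rxra, a retinoid receptor, rose by 0.20 with cisplatin (adjusted p = 0.0480, edgeR) and by 0.23 with oxaliplatin (adjusted p = 0.0251). Tgfbr1, a receptor used by GDF11, fell by 0.25 with oxaliplatin (adjusted p = 0.0118, edgeR) and did not pass with cisplatin (-0.10, adjusted p = 0.297). The hindlimb factor Tbx4 had 2 to 9 reads a library, Pitx1 had at most 1 and the forelimb factor Tbx5 had 0, so none was tested. Of 11 tested genes that lie among the Hox genes of the clusters, 1 changed for each drug, beside 38.7 and 41.6% of all genes. It was the pseudogene Gm11539 of the Hoxb cluster, which rose by 0.56 with cisplatin and 0.60 with oxaliplatin.

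Markers of several other cell types differed between the vehicle and drug libraries, and those of others were mixed or unchanged. Myelinating Schwann cell markers summed to 3510 to 4302 CPM in vehicle and 4558 to 6009 CPM in the drug libraries, and 7 of 7 rose with cisplatin and 3 of 7 with oxaliplatin. Fibroblast and matrix markers, from cells that themselves carry a Hox code, summed to 2010 to 2278 CPM in vehicle and 2578 to 2969 CPM in the drug libraries, with 8 of 8 higher for cisplatin and 6 of 8 for oxaliplatin. Erythroid markers summed to 36.5 to 48.8 CPM in vehicle and 81.1 to 199 CPM in the drug libraries, with 5 of 5 higher for each drug. No gene of these 3 lists was at 0 in any library. Endothelial markers were higher in 5 of 7 with cisplatin and 6 of 7 with oxaliplatin. Of 8 blood progenitor and myeloid markers, 7 rose and 1 fell with cisplatin, and 5 rose and 1 fell with oxaliplatin. Of 7 satellite glia markers, 2 rose and 2 fell with cisplatin, and 1 rose and 2 fell with oxaliplatin. Of 7 skeletal muscle markers 0 changed for either drug. Of all genes, 15.8% were higher with cisplatin and 17.5% with oxaliplatin, and 22.9 and 24.1% were lower. The part of these cells in the changes of Hoxd3, Hoxb5 and Hoxb7 was not tested.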

How the data were processed

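Libraries were prepared from total RNA of pooled ganglia with a stranded kit, per the labels' protocols. The authors deposited raw read counts per gene symbol with no normalization; STAR, SAMtools, HTSeq and mm10 (GRCm38) are named without versions in the submitters' processing notes. How the counting treated strand, and its annotation, is not given in the sources used. Reads in the 5 summary classes without a gene, 42.8 to 74.5% of the total, were left out. Positions and exon lengths came from GENCODE M21, in which all 38 members matched, and 91.6% of all symbols did so directly.

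Counts were fitted with edgeR 4.0.16 (R 4.3.3) over all 9 libraries, with 1 term per group, TMM scaling and filterByExpr (17348 genes tested). The procedure was tested on simulated data with the same spread for all genes and far fewer changed genes than were called here. That test therefore does not cover the conditions of these libraries. The members and lists were chosen with earlier results of these data known. Values of 1 member and of 1 gene taken out of the cofactor list are not reported here; that member is in all counts and sums but not drawn gene by gene. Values in every library are given for members of groups 9 to 13 above 3 counts, the highest member of each cluster and called members, and the 2 genes of smallest p in each pathway list are named. Alternatives were DESeq2 1.42.0, limma-voom (limma 3.58.1), other scalings, filters and thresholds, 2 groups alone, a replicate block and leaving out each library. Exact intervals of read ratios cover counting error only.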

Additional observations from a re-analysis of the deposited data

How the results depend on the processing

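Detection of 28 members in all 9 libraries was 25 to 29 under other floors and 28 without any single library. For cisplatin, 6 Hox calls became 14 (13 higher, 1 lower) with library totals alone and 11 at an adjusted p of 0.1; for oxaliplatin, 5 became 3 with limma-voom. For cisplatin against oxaliplatin, 0 became 1 (Hoxd10) with library totals alone. Leaving out each library in turn gave 3 to 6, 2 to 5 and 0 to 0 calls in the same order of comparisons; the lowest values came without vehicle library 3 (3 for cisplatin and 2 for oxaliplatin) and without oxaliplatin library 2 (2 for oxaliplatin), and oxaliplatin had 3 without vehicle library 1, cisplatin library 2 or oxaliplatin library 1 or 3. The cause was not tested.

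The share of level from groups 9 to 13 in vehicle, cisplatin and oxaliplatin was 32.7, 33.9 and 32.7% per kilobase of the longest transcript and 38.8, 40.4 and 39.3% of plain counts, which follows from the lengths used.

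With the replicate block, oxaliplatin had 3 Hox calls (1 higher, 2 lower) and cisplatin 5. Libraries of the same number had deviations correlated between -0.21 and 0.168, and those of different numbers between -0.315 and 0.281. With 3 pools a group these values cannot show whether the numbers pair the pools.

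Direction turned under library totals alone for Hoxc6 (0.034 for cisplatin, 0.079 for oxaliplatin), Hoxb9 (0.23 and 0.24), Hoxd9 (0.13 and 0.16), Hoxc10 (0.29 and 0.13) and, with oxaliplatin, Hoxa10 (0.31). Values next to 0 also changed sign elsewhere without passing. Hoxc10 with cisplatin was 0.012 with DESeq2 size factors, 0.042 with no filter, 0.026 at 1 CPM in 3 libraries, 0.013 with the DESeq2 test, 0.0095 with limma-voom, 0.00084 with 2 groups and 0.024 without abundant RNAs. Hoxa10 with oxaliplatin was 0.011, 0.052, 0.028, 0.012, 0.0060, 0.0010 and 0.024 in that order. Without single libraries, Hoxc10 with cisplatin ranged from -0.079 to 0.092, Hoxa10 with oxaliplatin from -0.069 to 0.081, and Hoxb9 from -0.089 to 0.024 (cisplatin) and -0.11 to 0.015 (oxaliplatin). Of the calls, Hoxb8 was lost in 13 of 19 alternatives for cisplatin and 14 for oxaliplatin, and Hoxc6 in 13 besides the turn above. Hoxb2 was lost in 10 (oxaliplatin), Hoxb5 in 3 (cisplatin) and 1 (oxaliplatin), and Hoxb7 in 3 (oxaliplatin) and 0 (cisplatin). Hoxa11 was lost in 3 of 18 (cisplatin), and Hoxd3 in none. Hoxd10 with cisplatin, not called, was called in 8 of 17. The 95% interval of the median member had a half-width of 0.22 for each drug against vehicle, so smaller changes were mostly not detectable.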
